A study of Mus musculus with 6 samples.

Results

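GATA4 was called at 521 places in the genome of mouse extra-embryonic endoderm (XEN) cells that lay away from promoters and at which no GATA6 library had a call. These GATA4-only regions were chosen by measured calls: each was present in all 3 GATA4 libraries, overlapped no region of any of the 3 GATA6 libraries by even 1 bp, and had its midpoint more than 1 kb from every annotated transcription start site (TSS) of a protein-coding or lncRNA gene. They were 6.29% of the 8282 regions of the combined GATA4 list and 12.2% of its 4259 distal regions (95% Clopper-Pearson interval 11.3 to 13.3%). GATA4-only describes calls, not binding, since a region below the calling threshold counted as absent. Of the other distal GATA4 regions, 1693 overlapped the combined GATA6 list (shared regions) and 2045 had a call in some GATA6 library without overlapping that list (partly shared regions).

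CUT&RUN, in which an antibody steers a nuclease to cut the DNA beside a bound protein, was used on GATA4 and GATA6 in unperturbed XEN cells, with 3 libraries per factor, 500000 cells per sample and, per the labels, 30000000 reads. All 6 libraries were labelled with the single XEN line 3F2, one of a family that carries an Oct4-GFP reporter together with the R26 M2rtTA and Col1a1 TetO-OKSmCh alleles for inducible reprogramming factors. The study's methods also name the line 3F6 and fewer replicates, and the labels were followed here. Nothing states that the replicates were separate cultures, so a p-value over libraries measures the spread between these libraries, which may be technical, and no IgG library was analysed here. CUT&RUN measures no expression, so the identity of the cells was not checked against marker genes. The lists held 46646 to 49597 regions for GATA4 and 42446 to 46484 for GATA6, and their union held 201994 merged regions.

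GATA4 and GATA6 are zinc-finger transcription factors that read the same short DNA word, written WGATAR, and both can drive embryonic stem cells towards the primitive endoderm, the lineage of the yolk sac from which XEN cells come. Distal sites of such factors often act as enhancers, which can lie in introns or between genes at a distance from the promoter they serve. XEN cells resemble parietal endoderm in the basement membrane proteins they make, and GATA factors also act in endothelium, blood and heart.

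The GATA word was the leading feature of the GATA4-only regions. It was sought as AGATAA or TGATAA, and with a final G as AGATAG or TGATAG, on either strand within 100 bp of the midpoint, where copies may overlap each other, and 39.9% of all 8282 combined GATA4 regions held it. The sequences of 3 regions that held it are shown to let the word be seen in place, as windows reaching 100 bp to either side of the midpoint (GRCm38/mm10, plus strand, 5′ to 3′), with each copy in capitals. A copy on the minus strand appears as its reverse complement, such as TTATCT. They are among the 10 GATA4-only regions with the highest GATA4 signal.
Zfp217 intergenic region, chr2:170195461-170195661: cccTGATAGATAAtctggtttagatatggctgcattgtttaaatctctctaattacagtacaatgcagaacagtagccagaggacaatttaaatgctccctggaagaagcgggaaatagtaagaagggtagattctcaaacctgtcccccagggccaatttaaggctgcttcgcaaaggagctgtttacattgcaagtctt
Akap2 intron region, chr4:57834343-57834543: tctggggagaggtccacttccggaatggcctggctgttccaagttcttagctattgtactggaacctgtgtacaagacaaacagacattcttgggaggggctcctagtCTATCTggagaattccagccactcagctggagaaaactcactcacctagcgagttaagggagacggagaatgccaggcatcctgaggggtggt
Itgb6 intron region, chr2:60689084-60689284: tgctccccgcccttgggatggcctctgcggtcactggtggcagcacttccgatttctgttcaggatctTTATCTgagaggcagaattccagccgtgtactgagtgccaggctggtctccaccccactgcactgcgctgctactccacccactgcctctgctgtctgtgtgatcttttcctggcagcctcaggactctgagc

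In the Zfp217 window a pair of copies overlap, and the Akap2 and Itgb6 windows hold 1 copy each. The next 7 windows are of GATA4-only regions within 50 kb of a gene of the fixed gene lists that had no copy in the window, and they are shown because the list-gene regions mostly lacked a central copy. Of the 9 regions near a list gene, 1 had the word within 100 bp of the midpoint, 5 within 100 bp of the maximum of the signal and 7 anywhere in the region.
Tek intron region, chr4:94746452-94746652: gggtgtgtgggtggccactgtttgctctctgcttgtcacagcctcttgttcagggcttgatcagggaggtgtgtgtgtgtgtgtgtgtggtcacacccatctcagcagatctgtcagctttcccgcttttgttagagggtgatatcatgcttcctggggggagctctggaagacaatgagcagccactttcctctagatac
Col4a1 intron region, chr8:11233829-11234029: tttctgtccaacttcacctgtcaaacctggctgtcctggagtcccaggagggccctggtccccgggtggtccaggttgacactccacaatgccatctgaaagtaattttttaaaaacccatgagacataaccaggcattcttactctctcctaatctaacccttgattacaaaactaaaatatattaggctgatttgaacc
Col4a2 intron region, chr8:11399940-11400140: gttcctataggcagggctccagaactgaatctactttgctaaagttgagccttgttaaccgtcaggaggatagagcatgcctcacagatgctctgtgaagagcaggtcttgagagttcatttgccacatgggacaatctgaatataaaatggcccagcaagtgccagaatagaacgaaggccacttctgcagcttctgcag
Sparc region, nearest gene Atox1, chr11:55445006-55445206: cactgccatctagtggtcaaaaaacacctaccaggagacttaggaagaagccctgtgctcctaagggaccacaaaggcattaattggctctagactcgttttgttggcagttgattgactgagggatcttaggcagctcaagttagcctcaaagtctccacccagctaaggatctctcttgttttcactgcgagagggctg
Krt8 and Krt18 region, chr15:101988202-101988402: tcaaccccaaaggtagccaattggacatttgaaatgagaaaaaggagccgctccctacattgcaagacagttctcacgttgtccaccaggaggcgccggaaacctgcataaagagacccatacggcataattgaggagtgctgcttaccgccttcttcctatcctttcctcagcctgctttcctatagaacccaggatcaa
Fosl2 intron region, chr5:32143318-32143518: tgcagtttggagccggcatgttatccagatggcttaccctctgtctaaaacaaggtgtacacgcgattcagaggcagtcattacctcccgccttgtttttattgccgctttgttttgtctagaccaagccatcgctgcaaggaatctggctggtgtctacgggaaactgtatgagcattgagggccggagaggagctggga
Batf intergenic region, chr12:85659485-85659685: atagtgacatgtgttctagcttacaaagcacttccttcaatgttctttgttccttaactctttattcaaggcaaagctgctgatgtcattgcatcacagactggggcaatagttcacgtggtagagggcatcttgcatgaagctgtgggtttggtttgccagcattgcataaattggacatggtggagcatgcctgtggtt

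Over all GATA4-only regions, 326 of 521 held the GATA word in the central window (62.6%, interval 58.3 to 66.7%), against 33.1% of 1042 windows of the same length placed 2 kb to either side (30.3 to 36.1%). A central window thus held the word 29.5 percentage points more often than its surroundings. One copy was present in 31.7% of regions, and 2 or more in 30.9%. Of the 547 copies, 41.0% were AGATAA, 24.7% TGATAA, 22.7% AGATAG and 11.7% TGATAG. In 100 bp bins, the share of regions with the word was 38.6% just before and 41.3% just after the midpoint, and between 14.4 and 21.3% in the bins from 500 to 1000 bp upstream. Counted around the base of maximum GATA4 signal instead, both central bins rose to 47.6 and 46.3%, and 370 of 521 regions (71.0%, 66.9 to 74.9%) held the word within 100 bp of it.

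**Figure D1:**
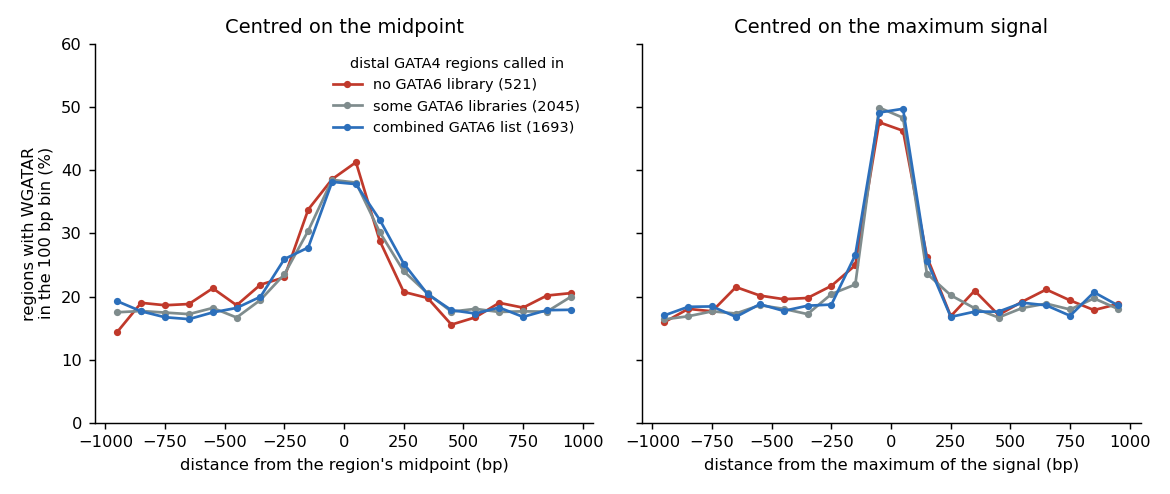
Share of distal GATA4 regions with the GATA word (WGATAR) in each 100 bp bin, in percent, against the distance from the region's midpoint (left) or from the base of maximum signal (right), for the 3 classes of GATA6 call. All 3 classes peak at the centre, and the GATA4-only line reaches 41.3% on the left and 47.6% on the right.

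Over all regions, the share did not separate GATA4-only regions from the other distal classes. It was 58.5% in shared regions, a difference of 4.04 points (-0.793 to 8.73, two-sided Fisher's exact p = 0.103, Benjamini-Hochberg adjusted over 16 motif comparisons 0.329). It was 60.1% in partly shared regions, a difference of 2.47 points (-2.25 to 7.05, Fisher's exact p = 0.315, adjusted 0.561). The units of these tests are regions, not replicates. By number of GATA6 libraries with a call, from 0 to 3, the share was 62.6, 61.3, 59.0 and 58.7%, with overlapping intervals. The sign depended on the GATA4 replicates: with regions of 2 GATA4 libraries in place of 3, the difference from shared regions became -6.16 without replicate 1, -6.13 without replicate 2 and -2.16 without replicate 3 (Fisher's exact p = 0.000262, 0.000209 and 0.191, unadjusted). Against partly shared regions it became -6.14, -6.37 and -4.17 points in the same order (Fisher's exact p = 6.26e-05, 1.72e-05 and 0.00456), so that 5 of these 6 reversed differences passed the threshold. Without GATA6 replicate 2 it was 4.69 points (Fisher's exact p = 0.0238, unadjusted).

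The comparison with shared regions was also made among regions of like GATA4 signal, since signal differed between the classes as given below. In the lowest tertile of GATA4 signal over all distal regions, 207 of 350 GATA4-only regions (59.1%) held the word against 106 of 238 shared regions (44.5%), a difference of 14.6 points (two-sided Fisher's exact p = 0.000555, unadjusted). In the middle tertile, 69.7% of 152 GATA4-only regions held it against 54.7% of 444 shared regions, 15.0 points apart (Fisher's exact p = 0.00118). In the highest tertile, only 19 GATA4-only regions remained, of which 68.4% held the word against 63.5% of 1011 shared regions (Fisher's exact p = 0.811). Flanks differed less, with 34.0 against 27.9% in the lowest tertile and 30.6 against 26.8% in the middle tertile. All these windows were centred on the midpoint. Over all regions, windows centred on the maximum signal gave a difference from shared regions of -0.158 points (Fisher's exact p = 0.956, unadjusted). The tertiles were not repeated with that centre, with the reversed word or with a GATA4 replicate left out. Against partly shared regions, the differences of 3.37, 7.53 and 3.55 points did not pass the threshold (Fisher's exact p = 0.304, 0.0820 and 0.811).

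**Figure D2:**
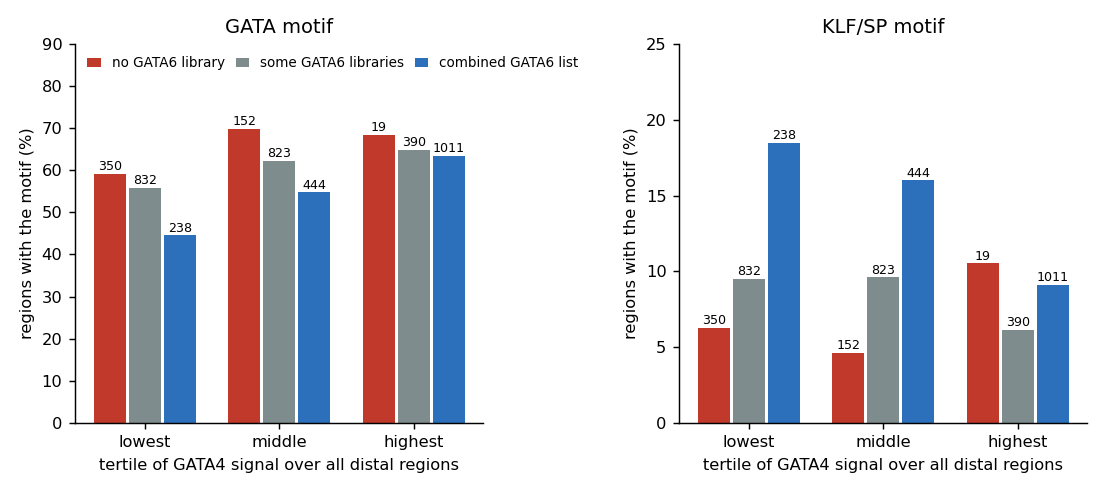
Share of distal GATA4 regions, in percent, with the GATA word (left) and the KLF/SP word (right) within 100 bp of the midpoint, by tertile of GATA4 signal and class of GATA6 call, with the number of regions above each bar. In the lowest and middle tertiles the GATA4-only bars stand above the shared bars for GATA, at 59.1 against 44.5% and 69.7 against 54.7%, and below them for KLF/SP.

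Of 7 other words searched in the same windows, KLF/SP separated the classes. KLF and SP factors bind GC-rich boxes, which are common in promoters, and 30.0% of all combined GATA4 regions held the word GGGCGG on either strand. It was present in 31 of 521 GATA4-only regions (5.95%, 4.08 to 8.34%), near the 3.84% of their flanks, and in 12.2% of shared regions. The difference was -6.28 points (-8.66 to -3.48, two-sided Fisher's exact p = 2.39e-05, adjusted 0.000382). It was -12.2 points in the lowest tertile of GATA4 signal (p = 7.41e-06) and -11.4 points in the middle tertile (p = 0.000143), both by Fisher's exact test. In the highest tertile, where 2 of 19 GATA4-only regions held it, the difference was 1.43 points (Fisher's exact p = 0.690). Partly shared regions lay between, at 8.90%, and the difference of -2.95 points from them did not pass after adjustment (Fisher's exact p = 0.0324, adjusted 0.173).

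AP-1, TEAD and SOX words had higher shares in GATA4-only regions than in their flanks. In shared and partly shared regions these words were above their flanks too. The control word described below was also above its flanks in GATA4-only regions, at 35.1 against 27.9%. TGANTCA, the AP-1 site read by the transcription factors FOS and JUN, was present in 11.1% of regions and 6.05% of flanks. GGAATG, read by the TEAD partners of YAP, was in 20.5% of regions and 12.6% of flanks. CATTGT, a form of the word read by SOX factors such as the endodermal SOX17 and SOX7, was in 20.7% of regions and 11.4% of flanks. TGTTTAC for FOX factors (2.88 against 2.98%) and the E-box CAGCTG (10.7 against 10.5%) were near the level of the flanks. None of the AP-1, TEAD, SOX, FOX and E-box words passed the threshold against shared or partly shared regions after adjustment. The smallest p was that of TEAD against shared regions, 3.53 points higher (-0.218 to 7.58, Fisher's exact p = 0.0673, adjusted 0.269). The GATA word stood together with the SOX word in 14.6% of GATA4-only regions, with TEAD in 14.6% and with AP-1 in 6.72%, while 23.2% held none of the GATA, AP-1, TEAD, SOX and FOX words.

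A control word moved as well. The letters of WGATAR read in reverse order, RATAGW on either strand, were present in 35.1% of GATA4-only regions, 27.9% of their flanks and 27.8% of shared regions, a difference from the latter of 7.36 points (two-sided Fisher's exact p = 0.00144, adjusted 0.0115). Counting only copies that had no base in a GATA word, 21.7% of GATA4-only and 15.9% of shared regions held it, 5.80 points apart (2.01 to 9.89, Fisher's exact p = 0.00281). GC content of the windows had a median of 46.3% in GATA4-only and 47.8% in shared regions. The part of base composition in the motif differences between classes, or between regions and flanks, was not tested.

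**Figure D3:**
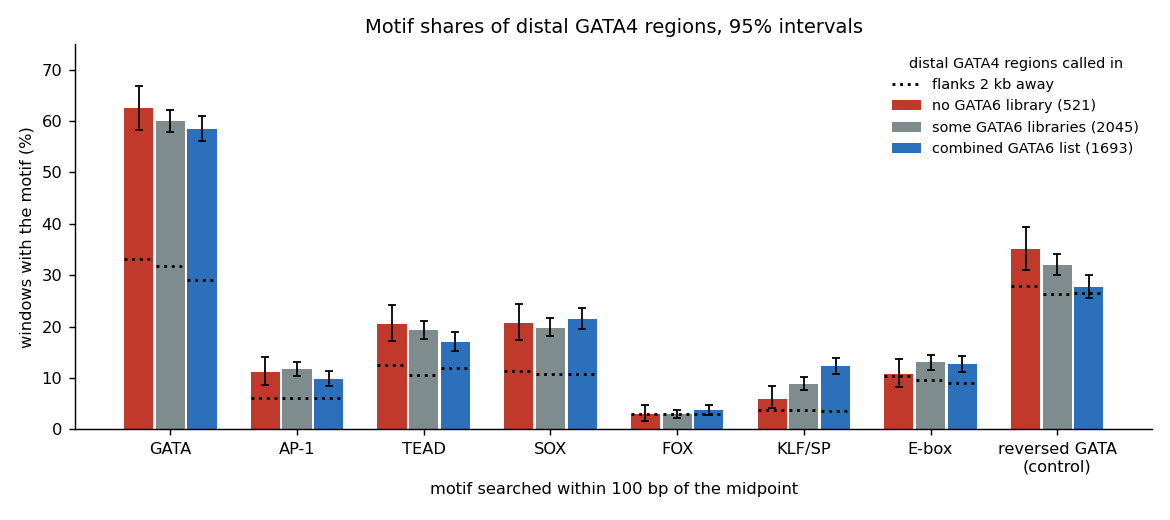
Share of windows within 100 bp of the midpoint, in percent, that hold each of 8 words, for GATA4-only (red), partly shared (grey) and shared (blue) distal regions, with 95% Clopper-Pearson intervals and, as dotted lines, the share in flanks 2 kb away. GATA stands far above its flanks in all 3 classes, and KLF/SP falls from 12.2% in shared to 5.95% in GATA4-only regions.

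The GATA4-only regions carried modest GATA4 signal. Because the same libraries chose the regions, the signal is a description and was not tested. Total signal, the fragment pileup summed over a region, ranked them at a median percentile of 73.5, 73.1 and 70.4 within the lists of GATA4 replicates 1, 2 and 3, a mean of 72.3 ± 1.67 (SD, n = 3). Partly shared regions stood at 85.0 ± 0.887 and shared regions at 94.99 ± 0.448. These medians kept their order in every replicate, while the single regions overlapped widely, with quartiles in replicate 1 of 52.5 and 87.0 for GATA4-only, 68.8 and 92.6 for partly shared and 88.9 and 98.3 for shared regions. The highest pileup inside a region, its maximum signal, averaged 6.003 ± 0.0828 in GATA4-only, 7.52 ± 0.164 in partly shared and 12.01 ± 0.420 in shared regions (SD, n = 3), where the median over a whole library was 4. A maximum of 5 or less was seen in 48.7% of GATA4-only regions and in 9.43% of shared ones, so that many calls rested on few fragments.

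The 10 GATA4-only regions with the highest mean percentile lay near genes of varied roles, 8 of them in introns. The first, chr2:170194985-170196137, was intergenic, 1508 bp from the nearest TSS and 47458 bp from the nearest coding one, that of the zinc-finger factor Zfp217. Its maxima were 8, 7 and 12 in replicates 1, 2 and 3, at the 98.1, 97.7 and 96.2 percentiles. Second was an intronic region of Tek (chr4:94746137-94746967), which encodes the angiopoietin receptor of endothelial cells, with maxima of 11, 9 and 11. Both were high in all 3 replicates, and the nearest GATA6 regions were 5530 and 1759 bp away.

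The next regions by signal that are described here all lay in introns. An intron of Akap2 (chr4:57834114-57834772), an anchor of protein kinase A, had maxima of 11, 10 and 9. An intron of Parva (chr7:112472104-112473438), whose product joins integrins to actin, had 7 in each replicate. An intron of Arhgap21 (chr2:20936552-20937216), which encodes a GTPase-activating protein, had 10, 11 and 7 and held no GATA word anywhere. An intron of the integrin subunit gene Itgb6 (chr2:60688864-60689503) had 14, 7 and 10, the widest spread of the 10 regions. An intron of Limch1 (chr5:67004519-67005055), an actomyosin regulator, had 11, 7 and 8.

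The remaining 3 regions of this rank lay near P4hb, Zfp608 and Amer1. P4hb encodes a disulfide isomerase that is also a subunit of collagen prolyl hydroxylase, and its intronic region (chr11:120570678-120572148) had maxima of 6, 8 and 5 with 6 copies of the GATA word, the nearest just outside the central window at -101 bp. The intergenic region nearest the zinc-finger gene Zfp608, 191281 bp from its TSS, had 9 in all 3 replicates and 7 copies. An intron of the Wnt pathway regulator Amer1 (chrX:95432929-95433722) had 9, 6 and 11 and 5 copies. Of the 10 regions, 6 held the word within 100 bp of the midpoint and 8 within 100 bp of the signal maximum.

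**Figure D4:**
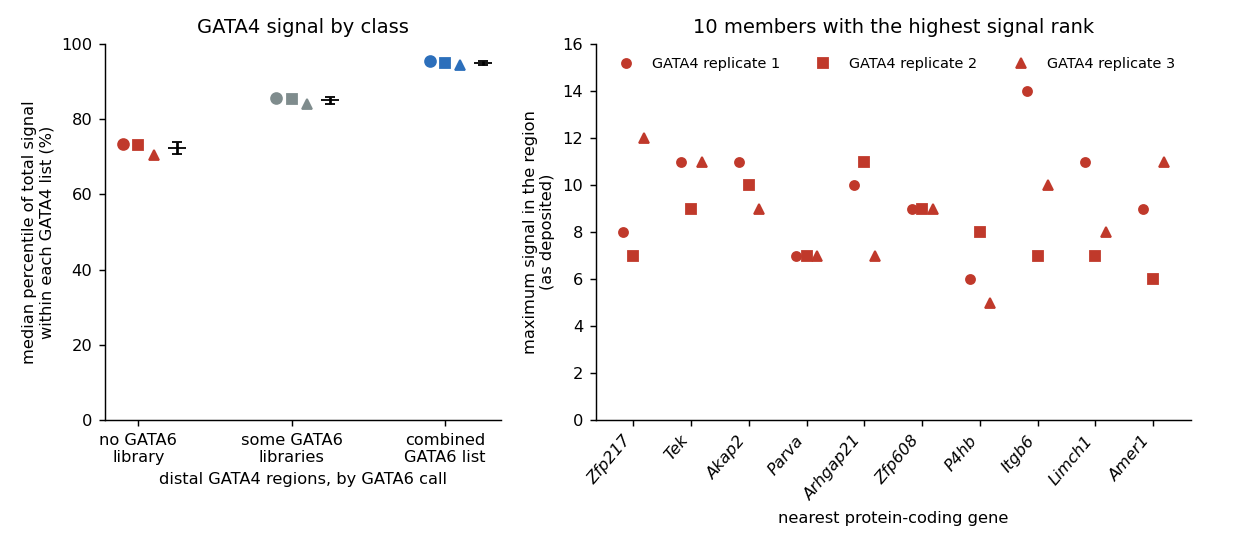
Left, median percentile of total signal within each GATA4 list for the 3 classes of distal region, 1 point per replicate with mean and SD (n = 3) beside. Right, maximum signal per GATA4 replicate, as deposited, in the 10 GATA4-only regions with the highest signal rank; the classes are ordered the same way in each replicate, from 72.3 to 94.99 on average, and the single maxima lie between 5 and 14.

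The next comparison looked up regions in libraries that had not chosen them. It is not independent of the rule for GATA4-only regions, since the same 6 libraries defined those. The regions called in the held-out GATA4 library alone, 511 to 522 per choice, were the GATA4-only regions up to their boundaries. Their number thus enters the difference given here. Distal regions common to 2 GATA4 libraries and absent from 2 GATA6 libraries, 2110 to 2383 regions for each of the 9 choices of 1 held-out library per factor, were looked up in the held-out pair. They were called in the held-out GATA4 library at 37.2, 34.6 and 35.5% for replicates 1, 2 and 3 (35.8 ± 1.35%, SD, n = 3) and in the held-out GATA6 library at 23.2, 20.9 and 23.3% (22.5 ± 1.36%). All GATA4 values lay above all GATA6 values. The difference of 13.3 points ranged from 11.4 to 15.9 over the choices (two-sided exact permutation p = 0.1, n = 3 and 3, which is the floor for this design). Each library was held out in some choices and chose regions in others, so the 3 values per factor are not independent. Here and for the mirror choice, the permutation exchanged these values without choosing the regions again. Dropping a GATA4 library altogether, so that a single library chose the regions, left differences of 1.72, 2.08 and 2.14 points without replicates 1, 2 and 3.

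The mirror choice is given beside it. Distal regions common to 2 GATA6 libraries and absent from 2 GATA4 libraries (1145 to 1403) were called in the held-out GATA6 library at 15.1 ± 1.57% and in the held-out GATA4 library at 16.2 ± 0.339% (SD, n = 3). The difference of -1.07 points ranged from -2.82 to 0 (exact permutation p = 0.4). When no absence was required, GATA4-chosen regions were called at 64.9 ± 1.70% in held-out GATA4 and 50.3 ± 1.58% in GATA6 libraries, and GATA6-chosen regions at 53.2 ± 2.54% in held-out GATA6 and 61.3 ± 0.737% in GATA4 libraries, a difference of -8.02 points (exact permutation p = 0.1). Held-out GATA4 libraries therefore called the larger mean share whichever factor chose the regions, and the part of this difference between the libraries in the 13.3 points was not tested.

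**Figure D5:**
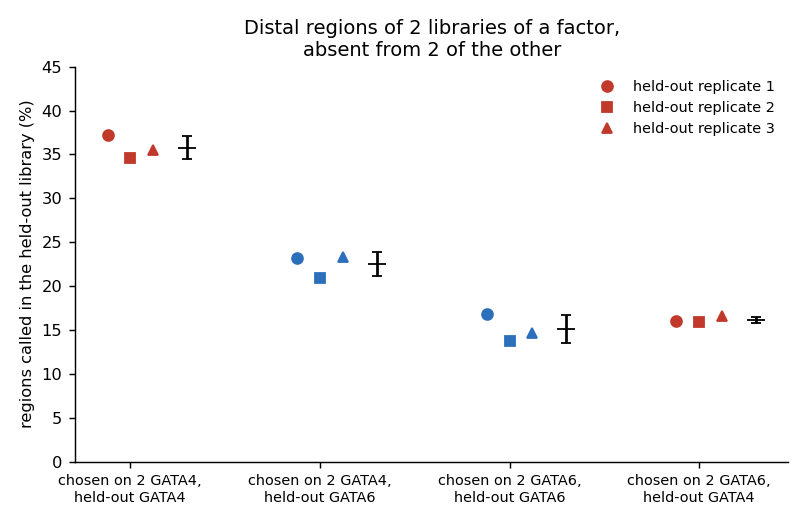
Share of regions, in percent, called in a held-out library, for distal regions common to 2 libraries of a factor and absent from 2 of the other; each point is a held-out replicate averaged over 3 choices of the other factor's library, with mean and SD (n = 3). GATA4-chosen regions were called at 35.8% in GATA4 and 22.5% in GATA6 libraries, and GATA6-chosen ones at 15.1% in GATA6 and 16.2% in GATA4 libraries.

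The GATA word was most frequent where the held-out GATA4 library had a call. Among GATA4-chosen regions, it was present in 64.3% of those called in the held-out GATA4 library alone (range 63.4 to 65.0% over the 9 choices), in 63.6% of those called in both, in 52.8% of those called in GATA6 alone and in 49.0% of those called in neither. Among GATA6-chosen regions, the same shares were 35.95% for held-out GATA6 alone, 37.9% for both, 40.1% for GATA4 alone and 37.8% for neither. GATA4-chosen regions called in held-out GATA4 alone, 511 to 522 per choice, met the calls that define the GATA4-only regions. Up to region boundaries, their 64.3% restates the share of those regions and is not a held-out result. It varied with the held-out GATA4 library but not with the held-out GATA6 library. The choices share libraries and regions, and no test was made of these shares.

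GATA4-only regions were somewhat more often inside genes than shared ones. Their midpoints lay in an intron in 284 cases (54.5%), in an exon in 19 (3.65%) and outside every gene body in 218 (41.8%, 37.6 to 46.2%). The intergenic share was 48.0% among shared regions, a difference of -6.18 points (-11.0 to -1.28, two-sided Fisher's exact p = 0.0139, adjusted over 2 comparisons 0.0278), and 46.3% among partly shared ones (-4.42 points, p = 0.0760). The difference from shared regions missed the threshold without GATA4 replicate 3 (-2.61 points, Fisher's exact p = 0.12) and without GATA6 replicate 3 (-3.59 points, p = 0.0830). By tertile of GATA4 signal it was -0.504, -13.3 and -22.1 points (Fisher's exact p = 0.933, 0.00459 and 0.0653). The GATA word was held by 64.8% of intronic, 52.6% of exonic and 60.6% of intergenic GATA4-only regions.

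The distance to the nearest TSS had a median of 11372 bp, against 11185 bp in partly shared and 11639 bp in shared regions. Of GATA4-only regions, 24.95% lay 1 to 5 kb from a TSS, 43.2% at 5 to 20 kb and 6.72% beyond 100 kb. They had a median width of 692 bp, where shared regions had 868 bp. Repeat-masked bases made up a median of 14.9 and 13.5%. The word was present in 56.2% of GATA4-only regions at 1 to 5 kb, 63.6% at 5 to 20 kb and 66.3% beyond 20 kb.

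Distances to GATA6 calls are described without background positions, so they are not read as close or far. The gap to the nearest region of any GATA6 library had a median of 2650 bp, with quartiles of 928 and 8097 bp, and 138 of 521 regions (26.5%) had one within 1 kb. Those 138 held the GATA word in 58.7% of cases and the other 383 in 64.0%, with overlapping intervals. The smallest gaps were 6 bp in an intron of Lima1, which encodes an actin-binding protein, 39 bp near the homeobox gene Nkx2-3 and 44 bp in an intron of Ptprn2. The distal regions just on the other side of the rule overlapped a GATA6 region by 18, 22 and 35 bp. At the TSS edge, the nearest included midpoints were 1015 bp (Vit), 1019 bp (Tmem109) and 1030 bp (Tmem116) from a TSS, and the nearest ones left out were at 998, 992 and 953 bp. Another region of the combined GATA4 list lay within 10 kb of 28.4% of GATA4-only, 32.4% of partly shared and 42.1% of shared regions, which was not tested.

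Call density varied along the genome. Chromosomes 8, 14 and 19, taken here as the chromosomes of dense calls, held 113 GATA4-only regions (21.7%) and 29.5% of shared ones. GATA4-only regions were 1.95 times as frequent per Mb there as on other autosomes, against 2.91 times for shared regions. The GATA word was held by 54.9% of the 113 (flanks 38.5%) and by 64.7% of the other 408 (flanks 31.6%). Without these chromosomes the held-out difference was 17.7 points.

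A GATA4-only region lay within 50 kb of a TSS of 794 of all 21938 protein-coding genes (3.62%), and any distal GATA4 region of 22%. Each list is given by its count, and nothing particular to a list is drawn from it. Of 132 list genes, 9 had a GATA4-only region (6.82%, with Krt8 and Krt18 sharing 1 region) and 62 any distal one (47.0%), both above the shares over all genes. Among genes with any distal GATA4 region, a GATA4-only one was found for 9 of 62 list genes. That was not above the 794 of 4819 over all genes. The 794 rose to between 2086 and 2277 when any 1 GATA4 library was left out and to between 1219 and 1269 when any 1 GATA6 library was, because the 521 regions then became 1666, 1839 and 1765 without GATA4 replicates 1, 2 and 3 and 812, 785 and 832 without GATA6 replicates 1, 2 and 3.

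Basement membrane and parietal endoderm genes gave 5 of 19 genes, Col4a1, Col4a2, Sparc, Krt8 and Krt18. Of these 19 genes, 15 had any distal GATA4 region and 10 had a shared one. Col4a1 and Col4a2 encode the chains of type IV collagen, the scaffold of basement membranes. The Col4a1 intron region (chr8:11233456-11234402), 1490 bp from a TSS of the gene, had maximum signals of 4, 5 and 3, and the Col4a2 intron region (chr8:11399686-11400394) had 5, 5 and 6. Both were low, at mean percentiles of 37.5 and 52.8, and had a GATA6 region 631 and 580 bp away. The region 21923 bp from the TSS of Sparc, a matrix glycoprotein gene of parietal endoderm, lay nearer to Atox1 (chr11:55444796-55445416) and had maxima of 8, 4 and 7. A single region (chr15:101988026-101988577), 16180 bp from the TSS of Krt8 and 39878 bp from that of Krt18, the keratin pair of simple epithelia, had 6, 6 and 5. The other 14 genes of this list, laminins and nidogens among them, had none.

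Among 12 XEN and primitive endoderm transcription factors, Gata4, Gata6, Sox7, Sox17, Foxa2, Eomes and Otx2 had distal GATA4 regions but no GATA4-only one.

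Of 10 endothelial and blood genes, 5 had any distal GATA4 region, and Tek was the 1 with a GATA4-only region. None of its 4 distal GATA4 regions within 50 kb overlapped the combined GATA6 list. Of 11 AP-1 genes, 5 had any distal GATA4 region. Fosl2 (chr5:32143054-32143781, maxima 4, 2 and 6) and Batf (chr12:85659383-85659787, maxima 6, 9 and 6) had a GATA4-only one, and each had no other distal GATA4 region within 50 kb. No gene had one among 16 receptors and ERK feedback genes, 14 visceral endoderm genes, 12 matrix receptors, 13 cardiac GATA4 targets and 25 pluripotency genes, though 9, 7, 1, 5 and 7 of them, in that order, had a distal GATA4 region of another class.

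Most of the 794 genes had a single GATA4-only region (753), 34 had 2, 6 had 3 and 1 had 4, and 117 of the 521 regions (22.5%) had no coding TSS within 50 kb. Tpr, a nuclear pore basket gene, had 4, which Odr4 and the lubricin gene Prg4 in part shared. Their maxima lay between 3 and 6, and 1 of them (chr1:150441093-150441988) ranked 521 of 521. The megabase that holds them, from 150 to 151 Mb of chromosome 1, had 67 to 81 calls per GATA4 library and 41 to 52 per GATA6 library, where the chromosome's median was 11 to 13 per Mb. The 3 regions shared by Ms4a4a and Ms4a4c, genes of four-pass membrane proteins, had maxima of 3 to 5 and also lay in a dense stretch of chromosome 19, with 74 to 116 calls per library in that megabase against a median of 25 to 35.

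Limch1 also had 3 regions. The Limch1 regions, all intronic, had maxima of 7, 9 and 8, of 5, 4 and 5 and of 11, 7 and 8, and none of the 5 distal GATA4 regions of the gene overlapped the combined GATA6 list. The middle Limch1 region lay below both others in every replicate.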

How the data were processed

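Regions were those the authors deposited for GATA4 and GATA6 CUT&RUN. Per the labels and the study's methods, the authors aligned reads to mm10 with Bowtie2 2.3.4.1, filtered them with Picard, SAMtools and bedtools, and called each library with SEACR 1.3 in stringent mode without normalisation. The deposited signal of each region is its total and its maximum of the unscaled fragment pileup, so it was ranked only within a list. The combined lists, positions only, hold regions present in all replicates. Per-library read numbers after filtering are not given in the sources used here, and intervals cover counting error only.

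Overlap meant at least 1 bp. TSSs and gene bodies came from GENCODE M21 and sequence from GRCm38. Motifs were sought on both strands. Classes were compared by Fisher's exact test over regions, and held-out libraries by an exact permutation test. The overlap, motif and held-out code was tested on simulated data. Named regions were the 10 highest by mean signal percentile, those near list genes, those of genes with 3 or more within 50 kb, and 3 at each edge of the rule; sequences were of list-gene regions and of others with a motif among those 10, at most 12. The regions and gene lists were chosen with earlier results of these data known. Signal tertiles of the KLF/SP and intergenic comparisons, the KLF/SP alternatives, the held-out choice with no absence required, the reversed word apart from GATA and local call densities were chosen after seeing the data. Scripts ran in Python 3.11.15 with scipy 1.17.1, numpy 2.4.6 and pysam 0.24.0, beside samtools 1.23.1; figures were drawn with matplotlib 3.10.9. Some regions that the naming rule selects are not reported here.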

Additional observations from a re-analysis of the deposited data

How the results depend on the processing

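Leaving out 1 library in turn moved the number of GATA4-only regions from 521 to between 785 and 1839, the share with the GATA word to between 50.9 and 63.4%, its difference from shared regions to between -6.16 and 4.69 points and from partly shared ones to between -6.37 and 4.17 points. The differences were negative without each GATA4 replicate (-6.16, -6.13 and -2.16 points against shared, -6.14, -6.37 and -4.17 against partly shared) and all but the -2.16 passed the threshold, unadjusted (Fisher's exact p from 1.72e-05 to 0.00456, and 0.191 for the exception), where 2 libraries and not 3 defined the regions. The same settings gave KLF/SP differences of -8.61 to -4.65 points, intergenic differences of -5.66 to -2.61 points, 1219 to 2277 genes, a median signal percentile of 56.8 to 76.0 and a held-out difference of 1.72 to 15.7 points.

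The GATA difference from shared regions passed the threshold, unadjusted, with GATA6 regions widened by 500 bp (6.14 points), with lists of equal length (42446 regions, 5.74), with lists of 21223 regions (8.67) and in the lowest and middle signal tertiles (14.6 and 15.0). Centred on the maximum signal it turned to -0.158 points, and to -1.45 against partly shared regions, neither past the threshold. The latter difference passed with lists of 21223 regions (7.18). The share itself was 40.9% within 50 bp, 85.2% within 250 bp, 71.0% around the maximum signal, 55.1% for GATAA, 30.9% for 2 or more copies, 69.1% with lists of 21223 regions and 69.7 and 68.4% in the middle and highest signal tertiles. The KLF/SP difference was 1.43 points in the highest tertile, where 19 regions remained, and the intergenic difference missed the threshold in the lowest (-0.504) and highest (-22.1) tertiles. Genes with a region numbered 1378 within 100 kb, 484 as nearest gene only and 498 with lists of 21223 regions. The median percentile was 67.9 with those lists and 82.9 by maximum signal. Motif comparisons past the adjusted threshold numbered 1 within 50 bp against 2 within 100 bp. Of 162 alternative values, the other 107 kept their side of the threshold or their size. All 11 held-out alternatives are among these, even where the difference fell to 1.72 points. Their p could not pass the threshold in this design, so only a change of sign would have been counted.

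With replicate numbers as a block, the held-out difference was 13.9 points (exact sign-flip p = 0.25, the smallest possible). Over all merged regions, the calls of same-numbered libraries deviated from their factor's mean with correlations of 0.00102, 0.00148 and 0.00118. Libraries of different numbers were not compared, so these values cannot decide whether the numbers pair the libraries. The maximum signal of many regions is a few fragments, which limits how far absence of a GATA6 call can be read, and 3 libraries per factor cannot give an exact p below 0.1.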
